A study of Arabidopsis thaliana with 9 samples.

Results

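Gene expression in wild type Arabidopsis thaliana seedlings given nitrate was compared with that in seedlings given chloride, for 15 min each. The 3 libraries titled as wild type with KNO3 and the 3 titled as wild type with KCl were taken, which is 6 of the 9 libraries of the series, with all 32678 genes of their count tables. Wild type seedlings, 7 days old and about 10 per sample, were treated with 10 mM KNO3 or with 10 mM KCl. Both groups had grown in liquid culture under constant light at 23 °C with 2.5 mM ammonium succinate as their nitrogen source, so the KCl group gives the state without nitrate at the same potassium supply. Each sample held whole seedlings, and root and shoot were not separated. An inhibitor, 3MBiP at 10 µM for 2 min before the treatment, is also described, without naming the samples it was used on. The other 3 libraries, from icpk seedlings with 10 mM KNO3 for 15 min, entered the model but not the comparison. They took part in the filter of genes tested, the scaling and the estimate of the spread. Whether replicates were grown as separate cultures is not stated, so the p-values reflect a spread among samples that may be technical in part or whole.

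Nitrate is both the main nitrogen source of most plants and a signal. Within minutes of its arrival, before amino acids made from it can build up, NIN-like transcription factors and calcium-dependent kinases switch on genes for its uptake and reduction. The same primary response reaches genes of hormones, carbon metabolism and growth, and those functions outside uptake and assimilation are described here.

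Libraries held 14265988 to 17126496 counts in genes with KNO3 and 5987352 to 19564785 with KCl. The smallest was KCl replicate 3, in which 80.5% of all records aligned at more than 1 place, against 23.8% to 51.5% in the other 5 libraries. Markers of both organs were present. The 16 root markers summed to 296 to 423 CPM (read counts scaled to the TMM library size, written CPM) with KNO3 and to 244 to 296 CPM with KCl, and the 21 markers of shoot photosynthesis, light-harvesting and Rubisco small subunit genes, to 36280 to 52260 CPM with KNO3 and 60980 to 73870 CPM with KCl. In whole-seedling RNA, fewer cells of a type and less RNA per cell cannot be told apart.

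Of 20288 genes tested, 722 were higher with KNO3 (3.56%) and 485 were lower (2.39%), at a Benjamini-Hochberg adjusted p below 0.05 in edgeR's quasi-likelihood test. The count of lower genes moved with single libraries: it was 1231 without KNO3 replicate 2, 125 and 183 without KNO3 replicates 1 and 3, and 224, 141 and 315 without KCl replicates 1, 2 and 3. The count of higher genes was 473 without KNO3 replicate 1, 476 without KCl replicate 2 and 490 to 846 without any 1 of the other 4. In what follows a gene rose or fell only if it passed in the fit of all libraries and, in the same direction, in each of the 6 fits that left out 1 wild type library. By that rule 407 genes rose (2.01% of those tested) and 88 fell (0.434%), and 305 and 38 of these changed at least 2-fold. In each of these genes the KNO3 and KCl libraries do not overlap, which the rule all but requires; over all genes tested, the KNO3 libraries were all above the KCl libraries in 12.3% and all below in 14.1%. Among the genes that rose were 21 of 58 tested genes of nitrate uptake and nitrogen assimilation and 16 of 27 known nitrate regulators. The remaining 370 genes that rose, and all 88 that fell, lay outside both lists. The median log2 fold change of all genes tested was -0.02.

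**Figure D1:**
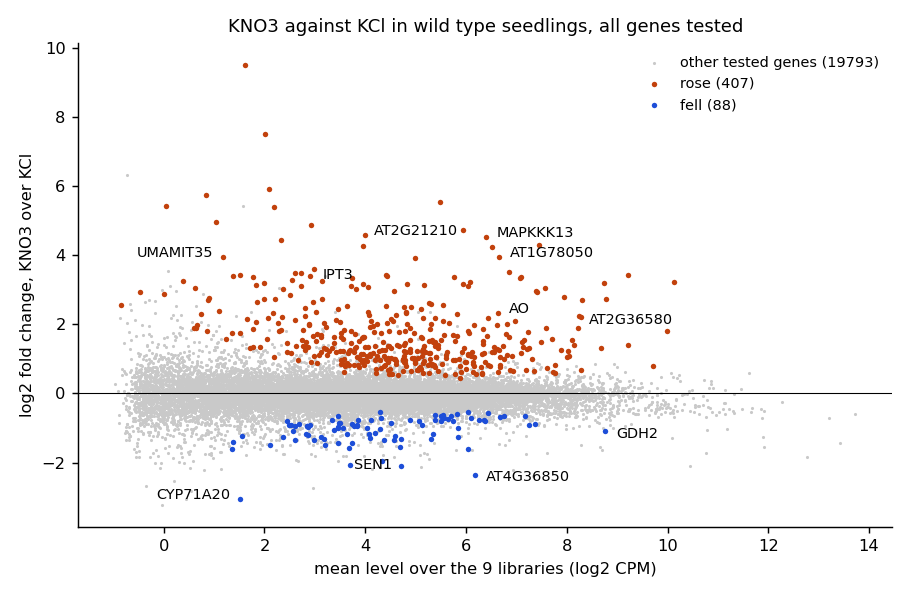
Each point is a gene tested, with its mean level over the 9 libraries (log2 CPM, x axis) and its log2 fold change of KNO3 over KCl in wild type (y axis); orange genes rose, blue genes fell and grey genes did neither. The 407 that rose reach larger changes than the 88 that fell, of which the lowest stands at -3.04; the topmost point, AT5G15060, had no count with KCl, so its height depends on the prior count of the model.

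The 35 functional lists and 2 marker lists used below hold 785 tested genes in all but the marker lists, of which 59 rose or fell. The lists and members were chosen with earlier results of these data known, so their shares are a description and not an independent comparison with all genes. Members that rose made up over 10% of trehalose 6-phosphate, abscisic acid, MAP kinase, auxin, strigolactone and karrikin, sulfate, rapid stress factor, glycolysis, cytokinin, and gibberellin and brassinosteroid genes, beside 2.01% of all genes tested, and 1 of 6 beta carbonic anhydrases rose. No member rose or fell in 12 of the 35 functional lists, which include cell cycle, aquaporin, expansin, flavonoid, copper, jasmonate and defence genes. The amino acid breakdown list was the one in which members fell and none rose.

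**Figure D2:**
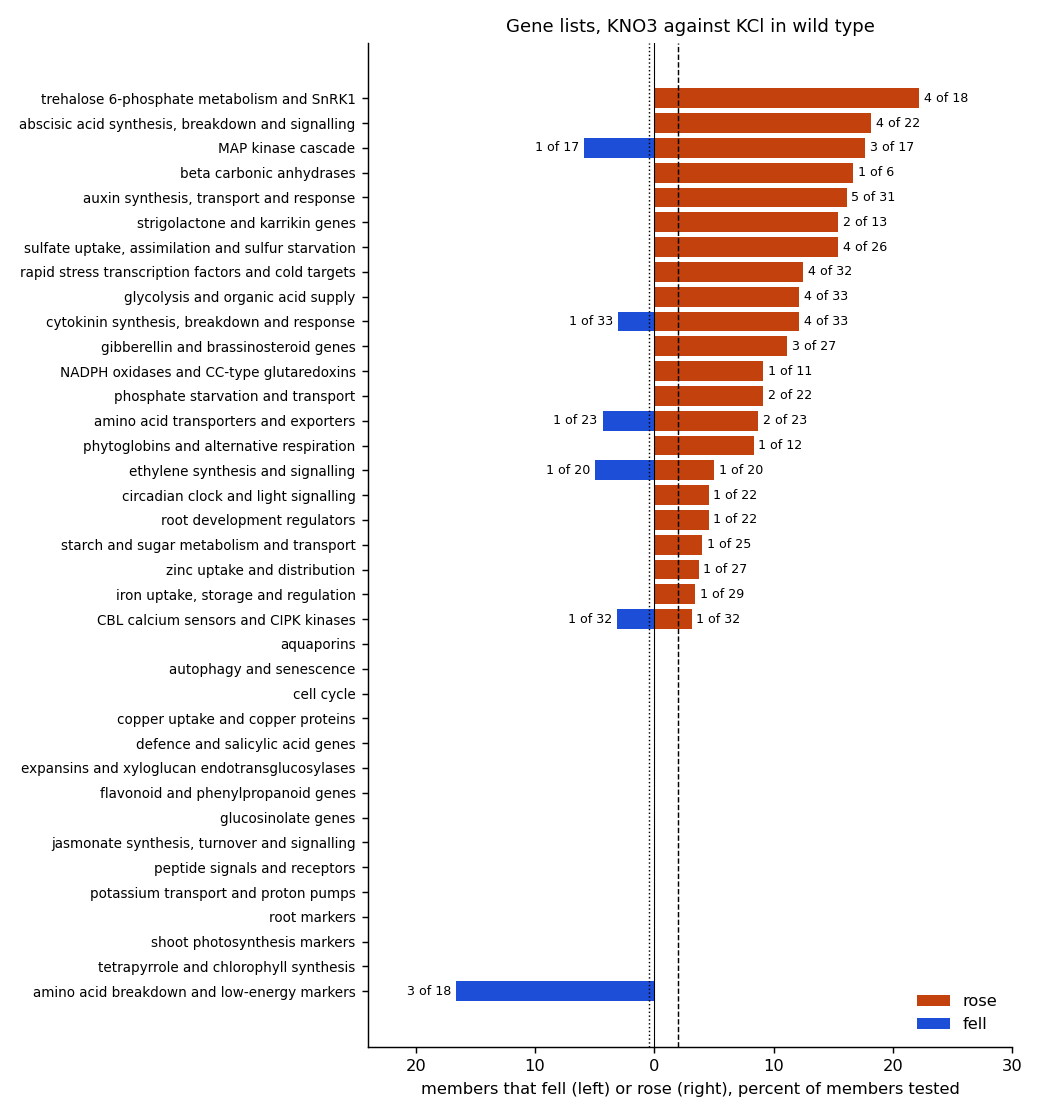
Bars give the percent of tested members of each gene list that rose (orange, right) or fell (blue, left) with KNO3 in wild type, with the counts beside them. The dashed and dotted lines mark the shares of all genes tested that rose (2.01%) and fell (0.434%). Trehalose 6-phosphate genes lead with 4 of 18. The lists were chosen with earlier results of these data known.

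The 15 largest rises were ranked outside both nitrate lists, among genes with a mean of at least 1 log2 CPM. MAP kinase cascades, chains in which a MAPKKK activates an MKK and this a MAPK, hold 1 of these 15, MAPKKK13. It had 112.5, 139 and 105 CPM in the KNO3 libraries, against 4.62, 6.21 and 4.03 CPM in the KCl libraries (log2 fold change 4.54 ± 0.19 SE, adjusted p = 2.99e-07). MAPKKK14 had 225, 238 and 200.1 CPM with KNO3, against 16.9, 24.4 and 23.5 CPM with KCl (log2 fold change 3.37 ± 0.16 SE, adjusted p = 5.4e-07). Both groups lie far apart in each of these kinases, as they do in MAPKKK19, which had 40.6, 39.8 and 53.02 CPM with KNO3 and 4.62, 7.745 and 4.399 CPM with KCl. All 3 are MAPKKKs of the MEKK type. Of the 17 tested cascade genes these 3 rose and MKK9, a MAPKK known for its part in ethylene and stress signalling, fell, with 48.8, 56.5 and 56.8 CPM with KNO3 and 77.7, 102 and 85.6 CPM with KCl (log2 fold change -0.71 ± 0.12 SE, adjusted p = 0.00525). The MKK9 call was lost without replicate 3 of every group (adjusted p = 0.0562). MAPKKK17 (-0.79) and MKK3 (0.52) were called in the fit of all libraries and lost with a library left out. The median over the list was 0.05, beside -0.02 for all genes.

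CIPK kinases are switched on by CBL proteins, which sense calcium. CIPK1 rose, with 144, 152 and 116 CPM with KNO3 and 53.1, 57.02 and 52.4 CPM with KCl (log2 fold change 1.34 ± 0.12 SE, adjusted p = 8.22e-05). CIPK20 fell, with 10.3, 4.53 and 4.62 CPM with KNO3 and 17.9, 15.96 and 18.7 CPM with KCl, and its call was lost without replicate 3 of every group (log2 fold change -1.19, adjusted p = 0.13). The other tested genes of this list neither rose nor fell, among them CIPK23, the kinase that acts on the nitrate transceptor, at 0.44 on the log2 scale, and CIPK8 at 0.70, whose calls in the fit of all libraries were lost when a library was left out. In that fit 5 genes of the list were higher and 3 lower, beside 3.56% and 2.39% of all genes tested. The lower ones include CBL10 (-0.50) and CIPK6 (AT4G30960, -0.49).

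Outside these lists, and picked after their values were seen, several sensors and switches rose. The osmosensing histidine kinase HK1 had 87.6, 80.5 and 75.9 CPM with KNO3 and 19.7, 21.4 and 18.15 CPM with KCl (log2 fold change 2.03 ± 0.09 SE, adjusted p = 5.4e-07). The G-protein gamma subunit AGG2 had 31.1, 27.7 and 27.8 CPM with KNO3 and 6.32, 7.08 and 10.1 CPM with KCl, and RGS1, which speeds up GTP hydrolysis by the G-protein alpha subunit, had 68.99, 60.02 and 62.85 CPM with KNO3 and 24.8, 23.8 and 25.1 CPM with KCl. Of the 54 tested genes annotated as protein phosphatases 2C, 6 rose and 1 fell, and the 6 include PP2CA, AT4G32950 (2.62 on the log2 scale) and AT5G26010 (2.03).

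**Figure D3:**
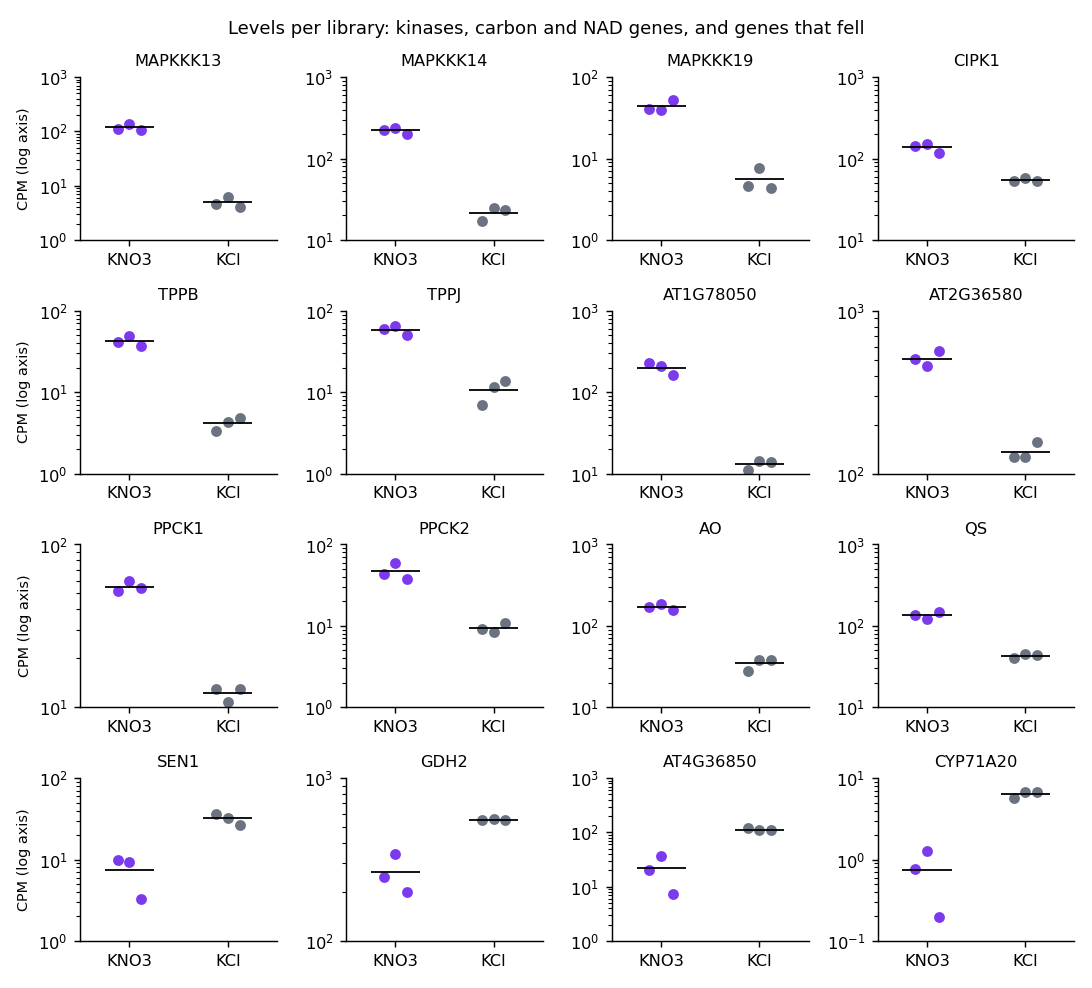
Levels (CPM, log axis) of 16 genes in each library, with the 3 KNO3 libraries left in purple and the 3 KCl libraries right in grey; lines mark group means. All 16 are among the 407 that rose and 88 that fell: the kinases, the trehalose, carbon and NAD genes stand higher with KNO3, and SEN1, GDH2, AT4G36850 and CYP71A20 lower.

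Of the 15 largest rises outside both nitrate lists, with a mean of at least 1 log2 CPM, 3 are transcription factor genes. AT5G15060, a LOB domain gene and the largest rise, had 97, 94 and 105 counts in the KNO3 libraries and 0 in each KCl library, which is at least 84.2-fold higher against a floor of 3 counts over the KCl group (41.9-fold, 53.4-fold and 73-fold without KCl replicates 1, 2 and 3). AT2G22200, of the AP2/ERF type, had 16.02, 31.9 and 15.1 CPM with KNO3 and 1.215, 1.07 and 0.733 CPM with KCl (log2 fold change 4.27 ± 0.35 SE, adjusted p = 3.42e-05). A GRAS family gene, AT5G19970, had 9.75, 13.25 and 5.605 CPM with KNO3 and 0.826, 0.935 and 0.733 CPM with KCl. Few or no reads with KCl, and reads in every KNO3 library, are what a choice of the largest rises favours. AT5G15060 could pass the filter of genes tested only through libraries treated with KNO3.

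Among the 32 tested rapid stress factors and cold-regulated targets, 4 rose and none fell. CBF1, a master regulator of the cold response, gave 145 counts over the KNO3 libraries and 2 over the KCl libraries, a ratio of 61.8 with a 95% counting interval of 16.8 to 516. CBF2 had 12.2, 7.86 and 12.6 CPM with KNO3 and 1.99, 2.27 and 1.28 CPM with KCl (log2 fold change 2.47 ± 0.23 SE, adjusted p = 7.99e-05). The cold-regulated genes that CBF factors act on had log2 fold changes of -0.44 for COR15A, -0.24 for COR15B, 0.03 for COR47, 0.50 for RD29A (listed as LTI78), 0.36 for KIN1 and -0.08 for KIN2, none of them called. ERF13 (-1.22) and CEJ1 (-0.64) were lower in the fit of all libraries and lost that call with a library left out. The cytokinin response factors CRF2 (1.17) and CRF3 (1.22) were the other 2 that rose. The zinc-finger genes of the ZAT and AZF groups neither rose nor fell, and NAC080, a NAC factor of the root development list, rose (14.9, 17.8 and 9.69 CPM with KNO3 and 3.06, 4.74 and 3.299 CPM with KCl).

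Of the 6 AP2-type genes that miR172 targets, picked after values were seen, 3 rose. SNZ had 9.37, 6.25 and 10.3 CPM with KNO3 and 1.99, 2.27 and 2.02 CPM with KCl, SMZ had 37.2, 44.1 and 35.8 CPM with KNO3 and 13.1, 16.4 and 15.6 CPM with KCl, and RAP2.7, also called TOE1, had 86.75, 96.3 and 82.7 CPM with KNO3 and 36.3, 38.99 and 44.7 CPM with KCl. These 3 are known to delay flowering. TOE2 (0.39, called in the fit of all libraries), AP2 (0.13) and TOE3 (-0.17) did not rise. SPL15, a factor that promotes flowering and is a target of miR156, also rose (1.76 ± 0.24 SE on the log2 scale).

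Cytokinins are made from adenine nucleotides by IPT enzymes, turned into trans-zeatin forms by CYP735A, and sensed by a relay that ends in response regulators. IPT3 had 20.02, 19.45 and 28.75 CPM with KNO3, against 2.04, 2.94 and 2.75 CPM with KCl (log2 fold change 3.17 ± 0.24 SE, adjusted p = 2e-05), and CYP735A2 had 10.6, 10.8 and 10.55 CPM with KNO3 and 2.33, 2.87 and 4.399 CPM with KCl (log2 fold change 1.84 ± 0.23 SE, adjusted p = 0.000696). ARR3, a type-A response regulator that damps the signal, had 9.88, 9.755 and 9.298 CPM with KNO3 and 1.31, 0.801 and 1.65 CPM with KCl. No other tested type-A regulator of the list rose. ARR7 (1.575) and ARR8 (0.912) were called in the fit of all libraries and lost that call with a library left out. ARR4 (-0.20), ARR5 (-0.364), ARR6 (-0.642), ARR9 (0.256), ARR15 (0.046) and ARR16 (0.007) were not called. The other IPT genes tested stood between -0.39 and 1.65 on the log2 scale, and none was called. Among the KMD F-box proteins, which target type-B response regulators for degradation, the members went apart. KMD1 (AT1G80440) had 105, 85.04 and 118 CPM with KNO3 and 35.8, 21.4 and 18.15 CPM with KCl (log2 fold change 2.0 ± 0.27 SE, adjusted p = 0.00116), and KMD4 (AT3G59940) had 14.3, 20.9 and 15.2 CPM with KNO3 and 65.85, 45.8 and 39.6 CPM with KCl (log2 fold change -1.6 ± 0.23 SE, adjusted p = 0.00201). KMD2 (AT1G15670) was at 0.90, called in the fit of all libraries and lost when a library was left out. In all, 4 of the 33 tested cytokinin genes rose and 1 fell, with a list median of 0.06.

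Auxin genes that rose cover synthesis, transport and perception. TAR2, an aminotransferase of auxin synthesis, had 22.8, 25.5 and 23.7 CPM with KNO3 and 10.98, 10.35 and 10.3 CPM with KCl (log2 fold change 1.18 ± 0.10 SE, adjusted p = 3.42e-05). YUC5, a flavin monooxygenase of the next step, had 19.96, 16.01 and 18.5 CPM with KNO3 and 6.17, 9.55 and 8.98 CPM with KCl, and was not called without replicate 3 of every group (adjusted p = 0.0682). PILS7 (AT5G65980), of the PILS auxin carriers, had 26.35, 31.2 and 24.1 CPM with KNO3 and 3.94, 2.203 and 4.03 CPM with KCl (log2 fold change 3.04 ± 0.26 SE, adjusted p = 4.77e-05). The receptor gene AFB3, known for its place in the root response to nitrate, had 109, 115 and 112 CPM with KNO3 and 52.1, 48.4 and 45.3 CPM with KCl (log2 fold change 1.2 ± 0.12 SE, adjusted p = 0.000151). The response gene IAA2 also rose (1.49), so 5 of 31 tested genes of the list rose and none fell. In the fit of all libraries 7 were higher and 2 lower: the synthesis gene YUC9 was at -1.48 and the conjugating enzyme gene GH3.3 at -1.03, and both lost their call with a library left out.

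The family annotated as SAUR-like, small early auxin-responsive proteins that promote cell expansion, was looked at after 2 of its members appeared among the largest rises. AT2G21210 had 18.3, 23.6 and 18.1 CPM with KNO3 and 0.875, 0.801 and 0.733 CPM with KCl (log2 fold change 4.59 ± 0.22 SE, adjusted p = 5.89e-07), and AT4G34800 had 14.7, 10.8 and 8.84 CPM with KNO3 and 1.07, 1.135 and 0.5499 CPM with KCl (log2 fold change 3.5 ± 0.27 SE, adjusted p = 2.24e-05). Of 38 tested family members 8 rose (21.1%) and none fell, and in the fit of all libraries 12 were higher and 4 lower. Of these 8, AT4G34750, AT4G34760, AT4G34770, AT4G34800 and AT4G34810 carry neighbouring locus numbers, and their log2 fold changes ran from 1.83 to 3.5. Counts of near-identical family members are uncertain. The 4 lower were SAUR63 (-1.84), AT3G53250 (-1.71), AT1G16510 (-0.90) and AT1G72430 (-0.57).

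Abscisic acid is broken down by CYP707A hydroxylases and held in check by type 2C phosphatases. CYP707A2 had 29.3, 21.8 and 24.99 CPM with KNO3, against 2.87, 3.005 and 2.93 CPM with KCl (log2 fold change 3.11 ± 0.16 SE, adjusted p = 8.29e-07), and CYP707A3 had 148, 156 and 134 CPM with KNO3 and 44.5, 79.5 and 67.1 CPM with KCl. The CYP707A1 and CYP707A4 genes were at -0.81 and -1.51 and were not called. PP2CA, a phosphatase that blocks the signal, had 99.6, 113 and 105 CPM with KNO3 and 30.5, 43.2 and 43.6 CPM with KCl (log2 fold change 1.45 ± 0.14 SE, adjusted p = 7.99e-05). ABF3, a bZIP factor that carries out the response, had 98.8, 84.6 and 93.6 CPM with KNO3 and 43.9, 45.1 and 41.6 CPM with KCl (log2 fold change 1.08 ± 0.09 SE, adjusted p = 3.42e-05), and ABF2, which was not on the list and was picked after its values were seen, had 77.4, 67.8 and 70.6 CPM with KNO3 and 24.9, 23.9 and 25.5 CPM with KCl. Genes of synthesis neither rose nor fell: NCED3 stood at -0.57, ABA1 at -0.07 and AAO3 at 0.10. BGLU18, a glucosidase that frees abscisic acid, was at -1.15, a call lost with a library left out. In all, 4 of 22 tested genes of the list rose, and its median was -0.04.

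Of 27 tested gibberellin and brassinosteroid genes, GA3OX1, ROT3 and BAS1 rose. ROT3 and CYP90D1 act in brassinosteroid synthesis. ROT3 had 25.8, 25.7 and 22.75 CPM with KNO3 and 11.6, 11.35 and 16.1 CPM with KCl (log2 fold change 0.96 ± 0.16 SE, adjusted p = 0.00538). CYP90D1 had 49.1, 40.6 and 40.5 CPM with KNO3 and 8.845, 9.615 and 8.065 CPM with KCl (log2 fold change 2.28 ± 0.16 SE, adjusted p = 9.18e-06). The other synthesis genes did not rise: CPD was at -0.52, lower in the fit of all libraries and lost in each fit with a library left out, and BR6OX2 was at -0.45, DET2 at -0.25, BR6OX1 at -0.15 and DWF4 at 0.39. BAS1 and the acyltransferase gene BAT1 act in inactivation: BAS1 had 10.01, 9.58 and 12.99 CPM with KNO3 and 4.71, 5.075 and 5.865 CPM with KCl, and BAT1 had 190.4, 207 and 211 CPM with KNO3 and 38.3, 44.5 and 60.5 CPM with KCl (log2 fold change 2.1 ± 0.16 SE, adjusted p = 2.24e-05). The bHLH growth factors HBI1 (1.68) and BEE2 (1.3) rose, and BIM1 (-0.54; adjusted p = 0.0884 without replicate 3 of every group) and BRH1 (-1.34), a RING-H2 gene that brassinosteroid lowers, fell. CYP90D1, BAT1, HBI1, BEE2, BIM1 and BRH1 were picked after their values were seen. GA3OX1, which makes active gibberellin, had 19.5, 23.5 and 17.5 CPM with KNO3 and 4.86, 3.405 and 2.93 CPM with KCl (log2 fold change 2.36 ± 0.20 SE, adjusted p = 4.63e-05).

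Strigolactone and karrikin signals act by removing SMXL repressors, and genes of 2 such repressors rose. SMXL8 (AT2G40130) had 7.88, 7.23 and 9.17 CPM with KNO3 and 1.895, 2.27 and 3.12 CPM with KCl, and SMXL2 (AT4G30350) had 152, 145 and 169.5 CPM with KNO3 and 49.6, 76.25 and 65.98 CPM with KCl (log2 fold change 1.28 ± 0.16 SE, adjusted p = 0.000773). In ethylene synthesis, the ACC oxidase gene ACO1 rose (28.5, 24.7 and 21.4 CPM with KNO3 and 10.7, 9.15 and 9.35 CPM with KCl) and the ACC synthase gene ACS7 fell (13.05, 16.75 and 9.96 CPM with KNO3 and 26.2, 33.6 and 30.4 CPM with KCl). In the fit of all libraries 2 genes of the ethylene list were higher and 3 lower, beside 3.56% and 2.39% of all genes tested. The lower ones include EBF2 (-0.58) and ERF1 (-1.03), which lost that call with a library left out. None of 26 tested jasmonate genes rose or fell, although the list median was -0.60. AOC2 (-1.35) and JAZ6 (-0.94) were lower in the fit of all libraries. Without KNO3 replicate 2, a fit that called 1231 genes lower in all, 5 members were lower.

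**Figure D4:**
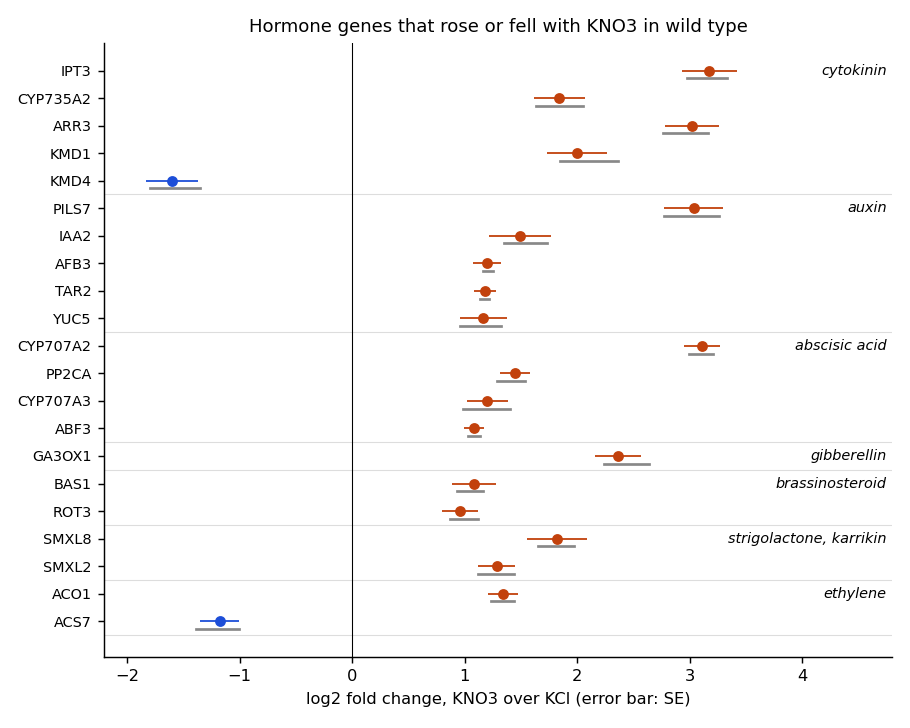
Log2 fold change of KNO3 over KCl in wild type for the hormone genes of the lists that rose (orange) or fell (blue), with SE as error bars. The grey line under each point spans the values in the 6 fits that left out 1 wild type library; KMD4 and ACS7 are the 2 on the left of 0.

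Carbon metabolism supplies the skeletons that take up reduced nitrogen. Trehalose 6-phosphate, a sugar signal, is made by TPS and removed by TPP enzymes. TPPB had 41.9, 48.6 and 36.9 CPM with KNO3, against 3.35, 4.34 and 4.765 CPM with KCl (log2 fold change 3.4 ± 0.16 SE, adjusted p = 5.4e-07), and TPPJ had 59.8, 65.1 and 50.2 CPM with KNO3 and 7.05, 11.55 and 13.75 CPM with KCl (log2 fold change 2.5 ± 0.22 SE, adjusted p = 5.72e-05). TPPI (0.93) and the class II TPS gene TPS9 (0.71) also rose, and the call of TPPI was lost without replicate 3 of every group (adjusted p = 0.0851). TPS1, a synthase with known activity, stood at -0.18, and the SnRK1 kinase genes KIN10 and KIN11 at 0.20 and 0.05, none of them called. The list median was 0.28.

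Phosphoenolpyruvate carboxylase feeds organic acids to amino acid synthesis and is activated by the kinases PPCK1 and PPCK2. PPCK1 had 51.7, 59.5 and 54.01 CPM with KNO3 and 12.9, 10.75 and 13.01 CPM with KCl (log2 fold change 2.18 ± 0.13 SE, adjusted p = 3.44e-06), and PPCK2 had 43.9, 59.85 and 37.4 CPM with KNO3 and 9.04, 8.35 and 10.8 CPM with KCl (log2 fold change 2.35 ± 0.17 SE, adjusted p = 1.59e-05). AT1G78050, a phosphoglycerate mutase gene, was among the 15 largest rises, with 226, 211 and 162 CPM with KNO3 and 10.9, 14.2 and 13.9 CPM with KCl (log2 fold change 3.96 ± 0.19 SE, adjusted p = 5.95e-07). The plastid enzymes PGI1 (0.82) and ENO1 (0.77) rose by less. The median of the 33 tested genes of this list was 0.17, and none fell. A pyruvate kinase gene, AT2G36580, with 503, 458 and 563 CPM with KNO3 and 126, 127 and 156 CPM with KCl, the malate dehydrogenase gene MDH (1.4), the transaldolase gene TRA2 (1.24) and the invertase genes A/N-InvB (1.42), A/N-InvD (1.47) and FRUCT5 (1.46) rose too, all picked after their values were seen.

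NAD synthesis starts from aspartate in plastids, by AO and QS. AO, the L-aspartate oxidase, had 169.9, 187 and 158 CPM with KNO3 and 27.85, 37.99 and 38.1 CPM with KCl (log2 fold change 2.32 ± 0.13 SE, adjusted p = 2.25e-06), and QS, the quinolinate synthase, had 135, 123 and 149 CPM with KNO3 and 40, 45.2 and 43.3 CPM with KCl (log2 fold change 1.66 ± 0.10 SE, adjusted p = 4.2e-06). The next enzyme, QPT, stood at -0.09, and the other 5 genes of NAD synthesis and NAD phosphorylation between -0.30 and 0.01, none of them called. AO and QS catalyse the first steps of the pathway, and its list was put together after their values were seen. The purine synthesis genes ASE2 (1.0) and PRS2 (1.04), picked in the same way, rose as well.

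Of 35 tested mitochondrial substrate carriers, a family picked after seeing its members, 5 rose and none fell. AT5G26200 had 12.7, 13.8 and 11.5 CPM with KNO3 and 1.555, 0.801 and 1.83 CPM with KCl (log2 fold change 3.25 ± 0.25 SE, adjusted p = 2.23e-05), APC2 had 45.8, 44.6 and 44.4 CPM with KNO3 and 16.4, 17.7 and 22.5 CPM with KCl, and mSFC1, a succinate and fumarate carrier, rose by 0.86 on the log2 scale. UCP5, a dicarboxylate carrier annotated as an uncoupling protein, stood at 456, 465 and 608 CPM with KNO3 and 106, 229.7 and 188 CPM with KCl (log2 fold change 1.55 ± 0.27 SE, adjusted p = 0.00691), and its call was lost without replicate 3 of every group (adjusted p = 0.0719).

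Transport of other solutes changed in single genes rather than in whole families. UMAMIT35 and UMAMIT36, of a family with known amino acid exporters, were near the floor with KCl: UMAMIT35 had 3.88, 4.935 and 5.28 CPM with KNO3 and 0.292, 0.267 and 0.367 CPM with KCl, and UMAMIT36 had 3.04, 6.197 and 2.84 CPM with KNO3 and 0.243, 0.534 and 0.367 CPM with KCl. Of 41 tested family members these 2 rose and none fell, and 3 were lower in the fit of all libraries, UMAMIT13 (-0.74), UMAMIT29 (-1.04) and UMAMIT33 (-1.93), with a family median of -0.09. LHT1, an amino acid importer, had 155.5, 122 and 217 CPM with KNO3 and 75.8, 52.15 and 77.5 CPM with KCl (log2 fold change 1.27 ± 0.20 SE, adjusted p = 0.00424). Among the GDU proteins, which act in amino acid export, GDU1 rose (28.03, 34.7 and 25.3 CPM with KNO3 and 9.04, 7.88 and 9.53 CPM with KCl) and GDU3 fell (6.85, 6.43 and 7.72 CPM with KNO3 and 20.1, 15.9 and 21.3 CPM with KCl). The sugar carriers SWEET12 (-0.85) and SUC1 (-0.60) were lower in the fit of all libraries and lost that call with a library left out. The polyol carrier PMT5 (1.18) rose, and its call was lost without replicate 3 of every group (adjusted p = 0.0545).

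HMA2, a pump that loads zinc into the xylem, had 80.35, 78.1 and 73.9 CPM with KNO3 and 17.35, 14.6 and 19.98 CPM with KCl (log2 fold change 2.18 ± 0.15 SE, adjusted p = 9.93e-06), and was the only 1 of 27 tested zinc genes that rose, with a list median of -0.14 and its close relative HMA4 at -0.26. IREG2, a vacuolar loader of metals also named FPN2, had 9.88, 11.9 and 11.01 CPM with KNO3 and 3.985, 2.67 and 4.95 CPM with KCl (log2 fold change 1.56 ± 0.20 SE, adjusted p = 0.000781), and no other of 29 tested iron genes rose or fell. In the fit of all libraries 4 iron genes were lower: IRT1, AT2G30766 (-3.04), AT3G25190 (-1.10) and OPT3 (-0.53). AT2G30766 was near the floor, with 1, 2 and 1 counts in the KNO3 libraries and 13, 12 and 5 in the KCl libraries. IRT1, the root iron importer, had 0.0646, 0.861 and 0.132 CPM with KNO3 and 2.19, 2.67 and 2.93 CPM with KCl, and each of the 4 lost its call in 5 of the 6 fits with a library left out. None of 23 potassium genes rose or fell. The inward channel AKT1 (AT2G26650, listed as KT1) was at 0.48, the proton pump HA1 at 0.53 and SKOR, which releases potassium into the xylem, at 1.69, each called in the fit of all libraries and lost in at least 1 of the fits with a library left out.

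In sulfur and phosphorus nutrition 6 genes rose and none fell, and over all genes tested 2.01% rose and 0.434% fell. SERAT2;1, which makes the precursor that takes up sulfide, had 208, 154 and 234 CPM with KNO3 and 66.5, 67.8 and 68.9 CPM with KCl (log2 fold change 1.55 ± 0.15 SE, adjusted p = 0.000112). APR2 (0.68), the key reductase of sulfate assimilation, EIL3 (0.58), also known as SLIM1 and a regulator of the response to low sulfur, and the vacuolar exporter SULTR4;1 (0.45) were the other 3 of 26 sulfur genes. LSU2 (-1.50) and AT1G04770 (-0.69), genes induced by low sulfur, were lower in the fit of all libraries and lost that call with a library left out. The phosphate sensor gene SPX4 had 29.1, 26.45 and 32.1 CPM with KNO3 and 12.25, 13.9 and 10.3 CPM with KCl (log2 fold change 1.25 ± 0.13 SE, adjusted p = 0.000214), and the galactolipid synthase gene MGD3 (MGDC) was at 1.99. In the remaining lists, the phytoglobin gene HB1, whose product removes nitric oxide, had 40.4, 36.03 and 27.7 CPM with KNO3 and 12.7, 8.55 and 7.33 CPM with KCl (log2 fold change 1.82 ± 0.21 SE, adjusted p = 0.000449), and the carbonic anhydrase gene BCA4 had 389, 361 and 329 CPM with KNO3 and 152, 193 and 168 CPM with KCl (log2 fold change 1.07 ± 0.12 SE, adjusted p = 0.000392). LUX (listed as PCL1), of the evening complex of the clock, was the 1 of 22 clock and light genes that rose (46.25, 48.8 and 51.6 CPM with KNO3 and 29.9, 28.98 and 27.7 CPM with KCl). PRR7 (-0.85) and PIF4 (-0.97) were lower in the fit of all libraries and lost that call with a library left out.

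The 3 largest falls were those of a P450 gene, a membrane protein gene and SEN1. CYP71A20 had 0.775, 1.26 and 0.198 CPM with KNO3 and 5.64, 6.74 and 6.78 CPM with KCl (log2 fold change -3.04 ± 0.38 SE, adjusted p = 0.000716), and AT4G36850, a PQ-loop membrane protein gene, had 20.5, 37.35 and 7.39 CPM with KNO3 and 120.2, 110.5 and 108.5 CPM with KCl (log2 fold change -2.37 ± 0.42 SE, adjusted p = 0.00747). KNO3 replicate 3 was the lowest library in both genes. SEN1, also called DIN1 and induced by darkness, had 9.88, 9.35 and 3.297 CPM with KNO3 and 36.55, 32.65 and 26.8 CPM with KCl (log2 fold change -2.1 ± 0.32 SE, adjusted p = 0.00306). The glutamate dehydrogenases, which release ammonium when carbon is short, fell as a pair: GDH2 had 248, 344 and 199 CPM with KNO3 and 549.8, 559 and 557 CPM with KCl (log2 fold change -1.07 ± 0.17 SE, adjusted p = 0.00418), and GDH1 had 57.75, 59.6 and 49.2 CPM with KNO3 and 105, 90.1 and 94.03 CPM with KCl (log2 fold change -0.80 ± 0.11 SE, adjusted p = 0.00171). They and SEN1 were the 3 of 18 tested genes of amino acid breakdown and low energy that fell, and the list median was -0.36. Genes of branched-chain amino acid breakdown in this list stood between -0.59 and -0.08 on the log2 scale and none fell by the rule used here: DIN4 was at -0.44, MCCB at -0.42 and IVD at -0.34. GDH3 stood at 2.24, called in the fit of all libraries and lost without KNO3 replicates 1 or 3 or KCl replicates 1 or 2. Other falls were a thionin gene, AT1G66100 (-1.95), a subtilase gene, AT1G32970 (-2.09), an AP2/ERF gene, AT2G44940 (-1.59), and the mannanase gene MAN1 (-1.39).

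Regulators of light responses, the clock output and growth were also among the falls, picked after their values were seen. COL2, a CONSTANS-like gene, had 10.5, 12.7 and 9.63 CPM with KNO3 and 28.9, 23.2 and 25.1 CPM with KCl (log2 fold change -1.23 ± 0.15 SE, adjusted p = 0.000638). CDF3, a cycling DOF factor, had 7.56, 5.57 and 6.001 CPM with KNO3 and 15.8, 12.2 and 14.85 CPM with KCl, and PKS2, a phytochrome kinase substrate, had 10.5, 10.04 and 7.45 CPM with KNO3 and 21.4, 25.8 and 21.6 CPM with KCl. BBX28 (-1.16), the cation exchanger gene CAX7 (-1.16), the ethylene response factor ERF-1 (-0.90) and the homeobox gene HB6 (-0.67) fell as well. Without replicate 3 of every group the calls of BBX28, ERF-1 and HB6 were lost (adjusted p = 0.0797, 0.0682 and 0.0705). LNG2 and TRM3, members of the LONGIFOLIA group that lengthens leaf cells, fell by 0.66 and 0.60 on the log2 scale.

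Markers of green tissue moved with these falls. The shoot photosynthesis markers had a median log2 fold change of -0.57, and their sum was lower in each KNO3 library than in any KCl library. Root markers had a median of 0.34. None of the 21 shoot and 16 root markers rose or fell. The part of this difference in the falls above was not tested.

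Chlorophyll and glucosinolate genes had negative list medians, as the photosynthesis markers did, although no member fell by the rule used here. Of 28 tested tetrapyrrole genes none rose or fell, with a median of -0.46 and a sum of 4246 to 5941 CPM with KNO3 and 5943 to 7445 CPM with KCl. Among them were GUN4, which assists magnesium chelatase, at -0.61, and PORB, which makes chlorophyllide in light, at -0.77. In the fit of all libraries 6 of them were lower, beside 2.39% of all genes tested. Without KNO3 replicate 2, a fit that called 1231 genes lower in all, 17 of them were lower. The count was 6 without KCl replicate 3 and 0 without any other 1 library. Of 28 glucosinolate genes none was called in the fit of all libraries, and the list median was -0.34. In the same fit without KNO3 replicate 2, with its 1231 lower genes, 14 of them were lower. In both lists KNO3 replicate 2 stood nearest to the KCl libraries.

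**Figure D5:**
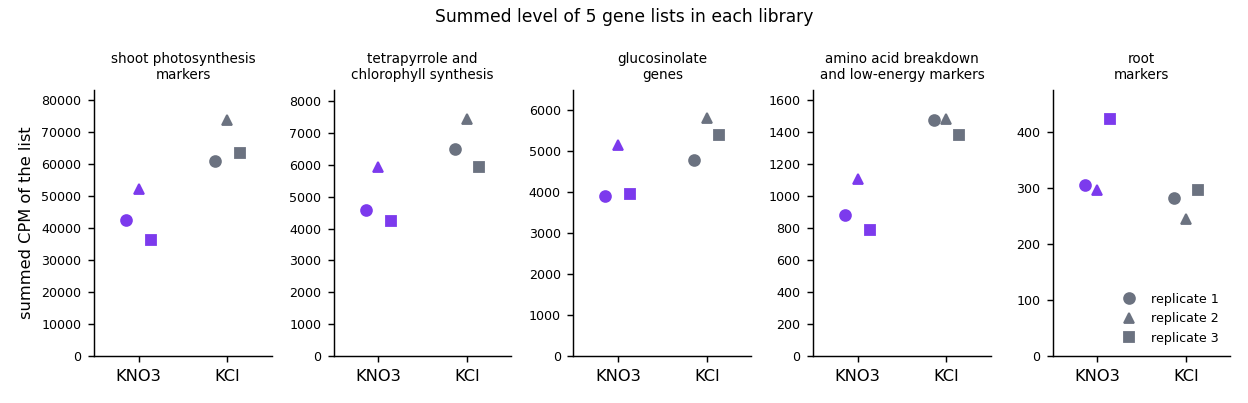
Summed level (CPM, axis from 0) of 5 gene lists in each library, KNO3 left in purple and KCl right in grey; the symbol gives the replicate number. KNO3 replicate 2 (triangle) is the highest KNO3 library in the photosynthesis, chlorophyll, glucosinolate and amino acid breakdown panels, and the root markers overlap between groups.

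In the lists without a member that rose or fell, single genes were called in the fit of all libraries and lost that call when 1 library was left out. MYB90, a factor that switches on anthocyanin genes, stood at 1.4 on the log2 scale and lost its call only without KCl replicate 1. FRK1, a receptor-like kinase gene used as a defence marker, stood at 1.82 and the water channel gene TIP2;1 (DELTA-TIP) at -0.92. PSK4, a phytosulfokine precursor gene, stood at -0.75, the wall-remodelling gene XTH9 at -0.44, and the senescence factor genes NAC6 (ORE1) and ATAF1 at -1.16 and -0.52. None of the tested cell cycle or copper genes was called in either direction. A CC-type glutaredoxin gene, AT4G15700, rose (1.29, 1.15 and 0.923 CPM with KNO3 and 0.194, 0.1335 and 0 CPM with KCl), and counts of its near-identical neighbours are uncertain.

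The 250 bases before each gene start were searched for 8 short motifs on both strands, in 20153 tested genes with an upstream window in RefSeq (TAIR10.1), as a description. GAATATTC, bound by the HRS1 and HHO repressors of the nitrate response, lay before 10 of the 407 genes that rose (2.46%), 2 of the 88 that fell (2.27%) and 0.853% of all 20153. AAAATATCT, the evening element of clock-regulated genes, lay before 7 of the 88 that fell (7.95%), 10 of the 407 that rose (2.46%) and 2.46% of all. The counts are small. TTGACC, a form of the W-box, lay before 15.2% of genes that rose, 7.95% of those that fell and 12.3% of all. GAATC (37.6%, 35.2% and 38.9%, among rises, falls and all genes), CACGTG, the G-box (7.37%, 7.95% and 7.26%), CCGAC, the core of the cold-response element bound by CBF factors (12.5%, 14.8% and 12.8%) and GTAC, the core of the copper response element (33.9%, 30.7% and 34.6%) were near the share of all genes. TGTCGACA, the core of the zinc deficiency element, was before 2 genes that rose (0.491%), 2 that fell (2.27%) and 0.268% of all.

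Windows of 30 bases with GAATATTC in capitals are given for genes that rose, to show the motif and its flanks in genes of different roles. PPCK1, CYP735A2, an AP2/ERF gene (AT1G71520) and a RING gene (AT5G20885) stand beside the repressor genes HRS1 and AT3G25790 themselves. They lie at chr1:2752086-2752115 (plus strand), chr1:25065615-25065644 (minus strand), chr1:26938336-26938365 (plus strand), chr5:7085005-7085034 (minus strand), chr1:4556631-4556660 (plus strand) and chr3:9412903-9412932 (plus strand), in that order, and each is written 5′ to 3′ on the gene's own strand.
PPCK1: ggcatcaaaagGAATATTCtcaagagtttt
CYP735A2: cgaattttcttGAATATTCgtttctatgtt
AT1G71520: aaacacgactcGAATATTCcaaagaaccca
AT5G20885: taattaaagcaGAATATTCccaatttttaa
HRS1: atcacattgcgGAATATTCaccactcacca
AT3G25790: atcacatccagGAATATTCaccactggatc

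The same is given for 4 of the 7 genes that fell and hold AAAATATCT, or its reverse complement where the motif is on the other strand, as before AT1G70820, a phosphoglucomutase gene. KMD4, COL2, MAN1 and AT1G70820 lie at chr3:22142764-22142793 (plus strand), chr3:489637-489666 (minus strand), chr1:460935-460964 (minus strand) and chr1:26705326-26705355 (plus strand), in that order. The other 3 are AT1G21680, AT2G30600 and AT4G37240.
KMD4: ttgttttcggAAAATATCTataacaaaata
COL2: ataagttaccAAAATATCTtcttgttacta
MAN1: gccaaattatAAAATATCTatttcctttaa
AT1G70820: gtttgcttgcAGATATTTTttttttgaaaa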

How the data were processed

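RNA from whole seedlings was made into TruSeq libraries that do not mark strand, per the labels' protocols, so a read over a gene and its antisense partner has no known origin. The authors deposited whole-number counts of reads per gene, without normalization. TopHat, HTSeq, DESeq2 and the TAIR10 build are named, per the submitters' processing notes, with no versions. In the 5 summary rows lay 26.7% to 84.3% of the records of a library, mostly reads aligned at more than 1 place, and these rows were left out. Genes with near-identical copies are therefore uncertain.

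The counts of 32678 genes were fitted with edgeR 4.0.16 in R 4.3.3 (filterByExpr with a minimum count of 10, TMM, quasi-likelihood test, no covariate, all 9 libraries, KNO3 over KCl in wild type), with Benjamini-Hochberg adjustment over the 20288 genes tested. The standard error was taken from the fold change and the F statistic and is an approximation. The biological coefficient of variation was 15.1%. The script was tested on simulated data. Gene counts per library ran from 5987352 to 19564785, and intervals on counts cover counting error only. RefSeq names matched 31912 identifiers.

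In each list up to 5 genes that rose or fell were named, or up to 2 genes called in the fit of all libraries where none did. The 15 largest rises and 15 largest falls with a mean of at least 1 log2 CPM, leaving out both nitrate lists, were also eligible. Other genes, named for their role beside these or as family members, were chosen after their values were seen. The members and lists were chosen with earlier results of these data known. The authors' deposited table of this comparison, with log2 fold changes and adjusted p-values, was compared only for its calls. The authors' table of the other comparison was not used. Alternatives were other scaling, no filter, DESeq2 1.42.0, the 6 wild type libraries alone, a replicate block, and libraries left out.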

Additional observations from a re-analysis of the deposited data

How the results depend on the processing

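The numbers of genes higher and lower with KNO3 were 722 and 485 in the fit of all libraries. DESeq2 called 788 lower, and 501 were higher and 176 lower without replicate 3 of every group, the libraries with later accessions. Leaving out 1 wild type library at a time gave 473 to 846 higher and 125 to 1231 lower genes. The cause was not tested. Other scaling, no filter and the 6 wild type libraries alone left both counts within 1.5 times. The 407 genes that rose and 88 that fell were all still called with DESeq2, other scaling, no filter, the 6 libraries and the replicate block, and 388 (95.3%) and 70 (79.5%) without replicate 3 of every group; none was called the opposite way. The authors' deposited table of this comparison called 975 genes higher and 879 lower. It called 406 of the 407 and 87 of the 88 in the same direction. It describes the same series, so this overlap is not an independent check. With the replicate number as a block, 711 genes were higher and 532 lower. Same-numbered libraries had correlations of deviations of -0.0358, 0.158 and 0.3 for replicates 1, 2 and 3. Those of differently numbered libraries ran from -0.317 to 0.23. The numbers were not taken as pairs in the main fit, and whether same-numbered libraries share a batch was not tested. The median log2 fold change of all genes lay between -0.025 and 0.001 in every setting. The depth of KCl replicate 3, 5987352 counts, limits what can be seen in low genes. Genes that were not called changed sign with a library left out: COR47 ranged over -0.06 to 0.1, QPT over -0.2 to 0.02, COR15B over -0.47 to 0.21, ABA1 over -0.12 to 0.01, KIN1 over -0.13 to 0.76, BR6OX1 over -0.4 to 0.02 and TOE3 over -0.44 to 0.06 on the log2 scale. Without replicate 3 of every group QPT was at 0.04, KIN2 at 0.05 and TOE3 at 0.09.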
